A study of Mus musculus with 4 samples.

Results

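The 8 genes described here were grouped for retinoid synthesis, transport, binding and breakdown. They are the retinal dehydrogenase genes Aldh1a1, Aldh1a2 and Aldh1a3, the plasma carriers Rbp4 and Ttr, the binding protein Crabp2 and the retinoic acid hydroxylase Cyp26b1. Aldh1a7 is included as the paralog of Aldh1a1, and no oxidation of retinal is ascribed to it here. The 8 genes were taken by symbol from the 32285 features of the count tables. They had been proposed because their summed counts differed between Uox_KO and Control sections. That contrast is therefore given for them as a description without a test, while comparisons of spots within a section, which did not choose them, are tested. Spatial transcriptomes (Visium, an array of barcoded spots that capture RNA from the tissue above them) were made from fresh frozen kidney sections cut at 10 µm. There were 2 sections of Uox_KO mice and 2 of Control mice, all from male mice of C57BL/6J background. In the Uox_KO mice exons 2 to 4 of Uox, the gene of urate oxidase, had been removed, and uric acid accumulates; no tissue-specific driver of the deletion is named. The Control mice were wild type, and the age of the animals and any litter relation were not given in the sources used here. The section was the unit of every comparison, so each group rests on 2 sections. For Uox_KO against Control over whole sections, the p-values weigh the difference against the variation among sections of a group. Where classes of spots were compared, section was a block, and the p-values weigh how evenly the class difference recurred across sections.

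Retinol travels in blood bound to retinol binding protein, encoded by Rbp4, which is held back from renal filtration by transthyretin, encoded by Ttr. Inside cells retinol is oxidised to retinal and then, irreversibly, to retinoic acid by the retinal dehydrogenases of the Aldh1a family. Retinoic acid acts through nuclear receptors until CYP26 enzymes break it down. In the kidney the proximal tubule takes filtered carrier protein back up by megalin, and retinoic acid made by Aldh1a2 and Aldh1a3 is known for its part in kidney development.

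Aldh1a1 and Aldh1a7 lie next to each other on chromosome 19 (GRCm38), at chr19:20492583-20643463 and chr19:20692953-20727556, with 49489 bases between them. On the same build Rbp4 lies at chr19:38116620-38125321, Aldh1a2 at chr9:71215789-71296243, Aldh1a3 at chr7:66390892-66427477, Crabp2 at chr3:87948693-87953372 and Cyp26b1 at chr6:84571414-84593908. The RefSeq promoter table (GRCm38) held 5 of the 8 members, and it listed 2 starts for Aldh1a1. The 250 bases before the downstream Aldh1a1 start (chr19:20601718-20601967, + strand) and before the Aldh1a7 start (chr19:20727557-20727806, - strand) are shown because the pair turned out to share a run of 65 identical bases, in capitals, from base 94 to base 30 before the start in both.
Aldh1a1: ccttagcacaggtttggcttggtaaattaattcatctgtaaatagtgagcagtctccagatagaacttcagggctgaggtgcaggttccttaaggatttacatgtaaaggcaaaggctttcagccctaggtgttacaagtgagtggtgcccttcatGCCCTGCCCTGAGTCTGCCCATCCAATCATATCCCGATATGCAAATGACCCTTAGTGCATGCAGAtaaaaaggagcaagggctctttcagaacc
Aldh1a7: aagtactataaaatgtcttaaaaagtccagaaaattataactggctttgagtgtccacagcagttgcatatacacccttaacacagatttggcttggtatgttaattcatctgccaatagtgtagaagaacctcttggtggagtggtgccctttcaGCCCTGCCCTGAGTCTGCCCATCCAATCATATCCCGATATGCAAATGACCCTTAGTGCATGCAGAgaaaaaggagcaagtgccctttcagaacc
Over the alignment of the pair, 185 of 228 positions were identical (81.1%). On both strands, 4 motifs were searched over the 250 bases before the start. The octamer ATGCAAAT began at base 56 before both starts, inside the shared run. It was held by 1.60% of the 32851 promoters of the table. CCAAT stood at base 72 before both starts and again at base 137 before the Aldh1a7 start (33.8% of promoters held it). TATAAA was found at base 244 before the Aldh1a7 start alone (12.4% of promoters), and AGGTCA, a core element that nuclear receptors bind, was found in neither (14.0% of promoters). These matches describe letters in these windows and no binding.

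The sections held 2528 and 3362 spots in Control and 2650 and 2590 in Uox_KO. They gave 93524222 and 107962997 UMIs (unique molecular identifiers, counts of captured molecules) in Control and 53897511 and 57230517 in Uox_KO, with medians of 37386 and 32038.5 UMIs per spot against 16674 and 19599.5. The labels' genotype could not be checked by Uox itself, since it had 0 UMIs in all 4 sections, which allows a level of up to 0.0278 to 0.0557 CPM (UMIs of the gene per 1000000 UMIs of the section). Malat1, a nuclear RNA whose share rises where cytoplasmic RNA is lost, stood at 127 and 94.2 CPM in Control and 308 and 275 in Uox_KO. Pairs of sections shared 1861 to 2539 spot barcodes, which in Visium name array positions. Replicate sections differed beyond counting noise (chi-square per gene 20.5 in Control and 42.5 in Uox_KO), so none was counted as a repeat of another. Spots where the fat or the urothelium marker list made up at least 0.1% of UMIs were few in Control (2 and 17) and more frequent in Uox_KO (333 and 404). All other spots are called tubule spots, a name that means only that they were not of that kind. They were not required to hold tubule markers, so spots rich in podocyte, endothelium, fibroblast or macrophage markers are among them. A spot covers several cells, and fewer cells of a type and less RNA per cell cannot be told apart in these data.

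All 8 members had higher levels in both Uox_KO sections than in both Control sections. The share of all genes whose groups lie apart in this way is not given here. Nothing is therefore read from groups that do not overlap, here or below. Levels are CPM of the section or of the class of spots. Log2 fold changes, Uox_KO minus Control, come from edgeR with TMM scaling. Scaling to total UMIs instead moves the median gene up by 0.26, and the direction of each member was the same on both scales. Aldh1a1, which oxidises retinal to retinoic acid, measured 4.93 and 4.84 CPM in the Control sections and 91.2 and 74.1 CPM in the Uox_KO sections, from 461 to 4913 UMIs per section. The Uox_KO sections stood far above Control and differed from each other more than the Control sections did (82.6 ± 12.0 against 4.89 ± 0.0601 CPM, SD, n = 2), and the log2 fold change was 3.81 ± 0.10 (SE). Aldh1a7, a close relative of Aldh1a1, measured 10.0 and 10.1 CPM in Control and 58.8 and 55.8 CPM in Uox_KO (log2 fold change 2.24 ± 0.06, SE). Both groups were tight and did not overlap. The ratio of Aldh1a7 to Aldh1a1 UMIs was 2.04 and 2.09 in Control and 0.645 and 0.753 in Uox_KO, so the paralog with more UMIs was Aldh1a7 in Control and Aldh1a1 in Uox_KO. Reads shared by near-identical copies could be assigned to either of them, and how the count files treated such reads was not given in the sources used here.

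Aldh1a2 and Aldh1a3 had fewer UMIs than Aldh1a1 and Aldh1a7. Aldh1a2, the main retinoic acid maker of the embryo, measured 2.21 and 1.62 CPM in Control and 19.1 and 23.3 CPM in Uox_KO (log2 fold change 3.21 ± 0.17, SE). Aldh1a3 measured 0.887 and 0.704 CPM in Control and 3.25 and 3.35 CPM in Uox_KO (log2 fold change 1.79 ± 0.17, SE). In neither gene did the groups overlap. Cyp26b1, which hydroxylates retinoic acid and so ends its action, was also on the higher side, with 1.38 and 1.33 CPM in Control and 5.01 and 7.04 CPM in Uox_KO (log2 fold change 1.89 ± 0.20, SE). Genes for the making and for the breakdown of retinoic acid thus stood higher in the same sections.

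Of the carriers, Rbp4 had 17 and 19 UMIs in the Control sections and 593 and 647 in the Uox_KO sections. That is 0.182 and 0.176 CPM against 11.0 and 11.3 CPM, a log2 fold change of 5.69 ± 0.14 (SE), and the log2 fold change was 3.92 when fat and urothelium spots were left out. Ttr, which carries thyroxine and holds the retinol binding protein, was at 408 and 399 CPM in Control and at 750.0 and 952 CPM in Uox_KO. Its log2 fold change was 0.81 ± 0.13 (SE), 1.29 in proximal spots alone, and the Uox_KO sections differed from each other by more than the Control sections did. Crabp2, a cytoplasmic protein that hands retinoic acid to its receptor, was near the limit of detection. It had 3 and 2 UMIs in Control and 5 and 6 in Uox_KO, and it did not pass the filter on low counts. Its highest level, 0.105 CPM, has an exact 95% Poisson interval of 0.0385 to 0.228 CPM, and its lowest, 0.0185 CPM, of 0.00224 to 0.0669 CPM, for counting error alone, so no fold is given. Of the 7 members that passed the filter, 7 were past the threshold (edgeR adjusted p under 0.05) in the higher direction, with a median log2 fold change of 2.24. Over all 16369 genes tested 67.1% were called in either direction (34.6% higher, 32.5% lower), and the median was 0.00. Nothing is read from that count, since the same contrast chose the members.

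**Figure D1:**
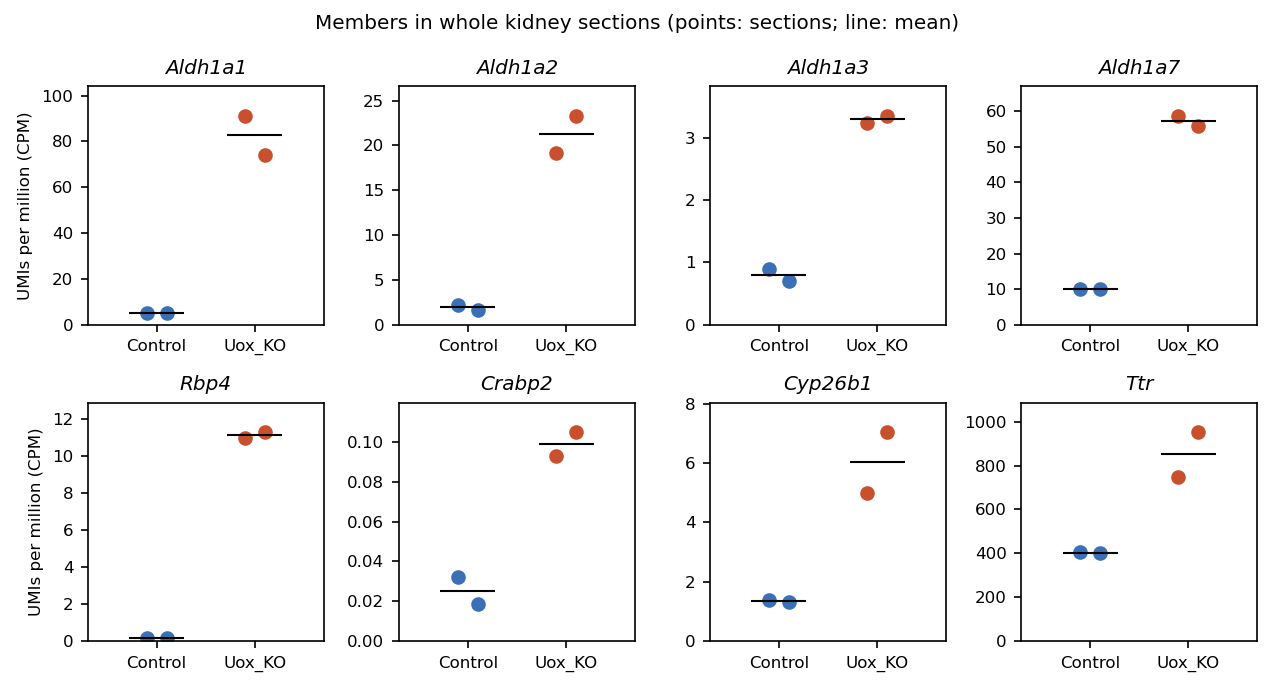
Levels of the 8 members in CPM (vertical axes, each from 0 on its own scale) in the 2 Control and 2 Uox_KO sections; points are sections and lines are group means. The Uox_KO points lie above both Control points in each panel, from 74.1 and 91.2 against 4.84 and 4.93 for Aldh1a1 to 750.0 and 952 against 399 and 408 for Ttr, and Crabp2 rests on 2 to 6 UMIs per section.

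The members lay in different spots of the kidney. Proximal spots were defined as the tubule spots in the upper 60% of their section by the summed share of proximal tubule markers (lists S1_S2 and S3, for the early and late segments), and there were 1516 and 2018 of them in the Control sections and 1542 and 1426 in the Uox_KO sections. These were 60% of the spots in each Control section and 58.2 and 55.1% of the spots in Uox_KO. Spots differ in depth, so a share of spots is not a share of all UMIs, and CPM takes depth into account. Aldh1a1 had 59.9 and 61.2% of its UMIs in proximal spots in Control and 76.1 and 74.3% in Uox_KO. Its level in proximal spots was 4.65 and 4.68 CPM in Control, against 4.93 and 4.84 CPM over all spots. In Uox_KO it was 106 and 90.4 CPM, against 91.2 and 74.1 CPM over all spots. Aldh1a7 had 68.8 and 69.9% of its UMIs in proximal spots in Control and 73.2 and 66.5% in Uox_KO. Ttr went from 70.1 and 70.9% in Control to 91.2 and 87.9% in Uox_KO, where it lay almost wholly in proximal spots. Aldh1a2 was spread otherwise, with 52.6 and 53.2% of its Uox_KO UMIs in the other tubule spots, which were 29.2 and 29.3% of spots. Its level in those spots was 37.9 and 46.7 CPM, against 12.4 and 15.6 CPM in proximal spots. Those spots need not be tubule, and Aldh1a2 was at 48.8 and 81.6 CPM in macrophage-rich and 50.0 and 71.7 CPM in fibroblast-rich spots of Uox_KO. Rbp4 lay mainly in fat and urothelium spots in Uox_KO, which held 76.4 and 82.4% of its UMIs and were 12.6 and 15.6% of spots. Its level there was 102 and 74.4 CPM, against 2.93 and 1.55 CPM in proximal spots and 2.59 and 3.95 CPM in the other tubule spots. In Control section 2, where 17 spots were of that kind, they held 8 of the 19 Rbp4 UMIs. The fat list summed to 2.94 to 21.6 CPM in Control and 1271 to 2289 CPM in Uox_KO sections, with all 8 of its markers detected in both groups. The urothelium list summed to 0.887 to 0.898 CPM and 68.7 to 106 CPM, with 1 of its 7 markers at 0 in Control. Fat-rich spots (the 10% of spots richest in the fat list) also separated the paralogs, since Aldh1a7 there was at 96.5 and 90.3 CPM in Uox_KO and Aldh1a1 at 31.5 and 27.3 CPM. The ratio of Aldh1a7 to Aldh1a1 UMIs was 3.06 and 3.31 in these spots and 0.621 and 0.674 in proximal spots, so the counts of the paralogs were not in a fixed ratio across the tissue.

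**Figure D2:**
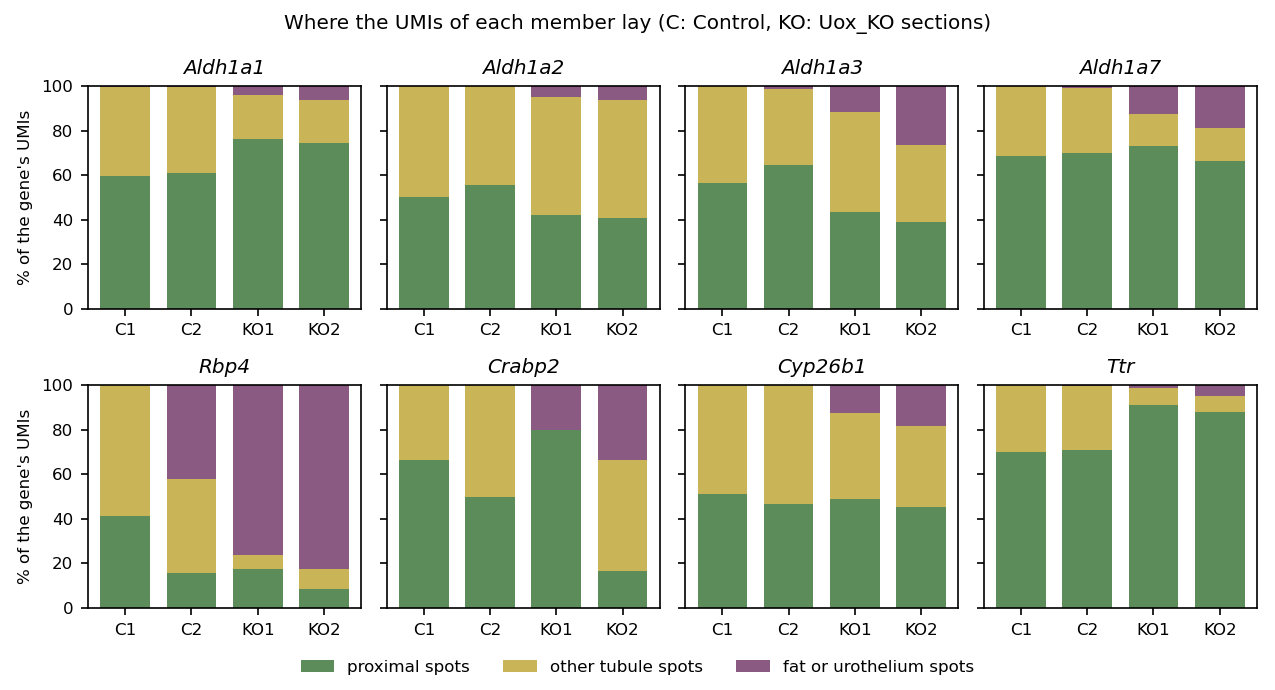
Percent of each member's UMIs (vertical axes, 0 to 100%) found in proximal, other tubule and fat or urothelium spots of each section (C, Control; KO, Uox_KO). Proximal spots take 91.2% and 87.9% of Ttr UMIs in Uox_KO, while fat and urothelium spots take 76.4% and 82.4% of Rbp4 UMIs; the Crabp2 bars rest on 2 to 6 UMIs.

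Whether Aldh1a1 and Aldh1a7 stood high in intact or in injured tubule was examined with Havcr1, which encodes KIM-1, a membrane protein that injured proximal tubule cells display. Havcr1 was at 0.278 CPM in each Control section and at 89.3 and 99.9 CPM in Uox_KO. Of the proximal spots of the Uox_KO sections, 1004 and 918 had no Havcr1 UMI, and 538 and 508 had at least 1, of which 128 and 151 had 3 or more. In both Uox_KO sections the Aldh1a1 level was high in spots of either kind. It was 104 and 88.8 CPM in Havcr1-negative spots, 109 and 92.6 CPM in Havcr1-positive spots and 114 and 94.5 CPM in spots with 3 or more Havcr1 UMIs, while all proximal spots of Control measured 4.65 and 4.68 CPM. Aldh1a7 was at 70.0 and 59.0 CPM in negative spots, 60.6 and 63.8 CPM in positive spots and 65.0 and 63.0 CPM with 3 or more, against 10.9 and 11.2 CPM in Control proximal spots. For Aldh1a1 the classes of a section lay closer together than the sections did, and Uox_KO section 1 was above section 2 in each class.

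The test within the proximal spots of the Uox_KO sections (edgeR quasi-likelihood, section as block, Benjamini-Hochberg over 13909 genes) did not separate the classes for either gene. These spots were picked by their share of proximal markers and held 31.9 and 26.5% of the Havcr1 UMIs of the sections. Any injured tubule low in those markers falls among the other tubule spots, which this test does not cover. The log2 difference, positive minus negative spots, was 0.05 for Aldh1a1 (95% interval -0.05 to 0.16, edgeR adjusted p = 0.653) and -0.07 for Aldh1a7 (-0.19 to 0.06, adjusted p = 0.612). The intervals hold small differences in either direction. For Aldh1a7 the sign differed between the sections, with 0.11 in section 2 and -0.21 in section 1 alone. Of the 7 members tested, 2 were called, both lower in positive spots, where 9.12% of all genes tested were called. Ttr was 1186 and 1571 CPM in negative spots, 866 and 1095 CPM in positive spots and 654 and 789 CPM with 3 or more UMIs, and it fell by 0.50 on the log2 scale (edgeR adjusted p = 3.71e-13). Even the class with 3 or more UMIs stood above the 450.2 and 447 CPM of Control proximal spots. Cyp26b1 fell by 0.99 (edgeR adjusted p = 2.55e-04), from 4.90 and 6.42 CPM to 2.21 and 3.59 CPM. DESeq2 gave -1.01 for Cyp26b1, with an unadjusted p of 0.0141 and no adjusted p, so it made no call. For Cyp26b1 the difference kept its direction but lost its call in 4 further alternatives. It was -0.72 with spots thinned to 5000 UMIs (edgeR adjusted p = 0.660), -0.55 and -0.76 within the third of spots highest and the third lowest by S3 share (adjusted p = 0.405 and 0.603), and -0.99 with no filter on low counts (adjusted p = 0.0640). Aldh1a2 had a difference of 0.27, which did not pass (edgeR adjusted p = 0.0951), and was higher by 0.59 where positive meant 3 or more Havcr1 UMIs (edgeR adjusted p = 4.83e-04). Its levels were 11.9 and 13.8 CPM in spots without Havcr1 and 16.5 and 22.9 CPM with 3 or more. Aldh1a3 (log2 difference -0.70, edgeR adjusted p = 0.102) and Rbp4 (-0.52, adjusted p = 0.265) did not pass.

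Depth, tissue makeup and Malat1 moved with the Havcr1 classes. Havcr1-positive proximal spots had medians of 28375 and 29065.5 UMIs against 16164.5 and 20678.5 in negative spots. With every spot thinned to 5000 UMIs, the log2 differences were -0.10 for Aldh1a1 (edgeR adjusted p = 0.835) and -0.10 for Aldh1a7 (adjusted p = 0.861). Ttr was again lower (-0.55, adjusted p = 0.00977). The S1_S2 list made up 0.636 and 0.719% of UMIs in negative spots and 0.531 and 0.612% in positive spots. The macrophage list made up 0.0762 and 0.0515% against 0.0774 and 0.0631%. Malat1 was at 320.3 and 239 CPM in negative spots, 232 and 221 CPM in positive spots and 161 and 208 CPM with 3 or more Havcr1 UMIs. It was lower in positive spots by 0.31 (edgeR adjusted p = 7.59e-06), and by 0.62 where positive meant 3 or more UMIs (adjusted p = 1.88e-17), but DESeq2 did not call it (adjusted p = 0.507), and with thinned spots the difference was 0.06 (adjusted p = 0.845). The part of these values in the differences of the members was not tested.

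Outside the proximal spots, in spots that need not be tubule, the values ran otherwise. The other tubule spots held 66.7 and 72.3% of the Havcr1 UMIs of the Uox_KO sections, and their Havcr1 level, 224 and 272 CPM, was above that of the proximal spots, 43.7 and 43.5 CPM. There, Aldh1a1 was at 42.2 and 36.7 CPM in spots without Havcr1, 68.2 and 48.4 CPM with 1 or 2 UMIs and 94.1 and 76.0 CPM with 3 or more. Aldh1a7 was at 20.8 and 23.9 CPM, 37.0 and 28.3 CPM, and 38.8 and 40.7 CPM in the same classes. In both sections and for both genes each class with Havcr1 was above the class without. The log2 difference, positive minus negative, was 0.99 for Aldh1a1 (95% interval 0.80 to 1.18, edgeR adjusted p = 3.29e-08) and 0.79 for Aldh1a7 (0.55 to 1.03, adjusted p = 1.57e-05). This set of spots was chosen after the data had been seen, and the difference from the proximal spots was not itself tested. Spots without Havcr1 in this set also carried more of the distal and connecting tubule list (0.791 and 2.25% of UMIs, against 0.157 and 0.174% with 3 or more Havcr1 UMIs) and were shallower (medians of 10856 and 11755 against 29353 and 30558 UMIs). Malat1 went from 460.0 and 416 CPM in those without Havcr1 to 199 and 242 CPM with 3 or more UMIs, and was lower in positive spots by 0.81 (edgeR adjusted p = 2.81e-07). The part of these in the difference was not tested. Their S1_S2 shares were 0.145 and 0.186% against 0.160 and 0.215%. Over all tubule spots together the log2 differences were 0.09 for Aldh1a1 (edgeR adjusted p = 0.164) and -0.09 for Aldh1a7 (adjusted p = 0.205).

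**Figure D3:**
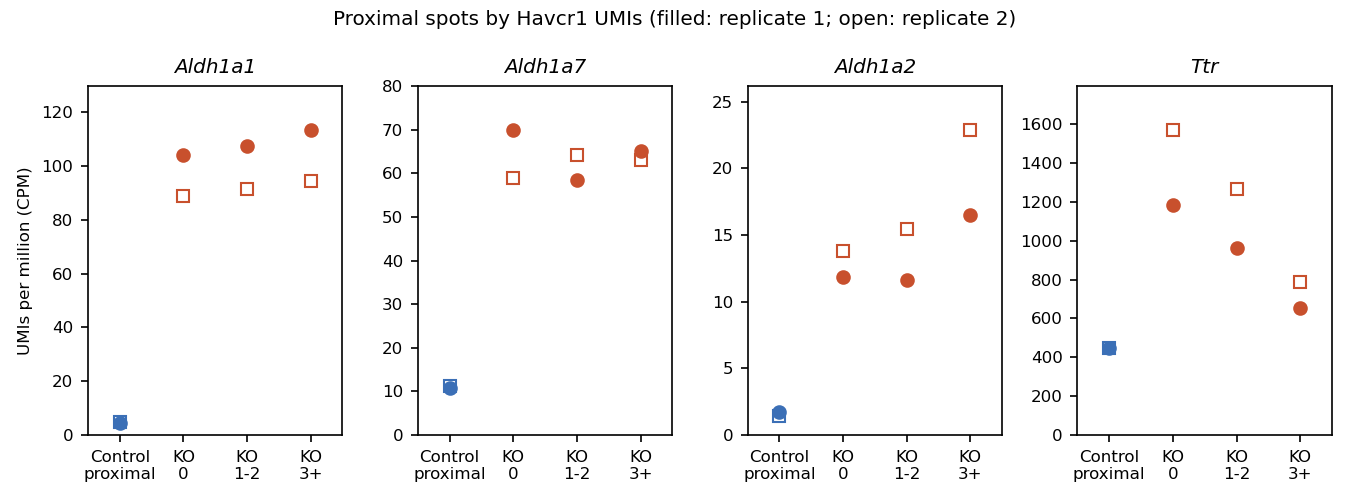
Levels of Aldh1a1, Aldh1a7, Aldh1a2 and Ttr in CPM (vertical axes from 0, each on its own scale) in Control proximal spots and in Uox_KO (KO) proximal spots with 0, 1 to 2, and 3 or more Havcr1 UMIs; filled circles are replicate 1 and open squares replicate 2 of a group. Aldh1a1 lies between 88.8 and 114 over the Uox_KO classes, against 4.65 and 4.68 in Control, and Ttr goes from 1186 and 1571 to 654 and 789.

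To place the members, the 10% of spots of each section richest in a marker list were compared with all its other spots (marker-rich spots; edgeR quasi-likelihood, section as block, with a term for the difference between genotypes). A rich spot still holds other cells, and the leading genes of the lists were Slc34a1 for S1_S2, Acy3 for S3, Podxl for podocytes, Col1a2 for fibroblasts, C1qb in Control and Lyz2 in Uox_KO for macrophages, and Spp1 for injured tubule. Spp1 alone gave 93.4% of that last list's UMIs in Control and 94.9% in Uox_KO, so those spots are in effect Spp1-rich spots. In Uox_KO, TMM scaling placed the median gene of a comparison up to 0.56 apart from scaling to total UMIs, and the share of higher genes among those called moved with it. In Uox_KO that share went from 44.7% to 14.2% for S1_S2-rich and from 45.3% to 14.6% for S3-rich spots. It went from 45.9% to 82.8% for podocyte-rich, 47.7% to 81.9% for macrophage-rich, 47.6% to 81.7% for fibroblast-rich and 46.7% to 70.0% for injured-tubule-rich spots. In Control it went from 50.6% to 20.8%, 44.0% to 92.0%, 50.1% to 90.3%, 48.2% to 86.0% and 47.0% to 77.8% for S3, podocyte, macrophage, fibroblast and injured tubule. Of the 126 differences computed for members in these 6 lists, 65 were called on both scales, 0 of them in opposite directions, 13 with TMM alone and 7 with total UMIs alone.

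Ttr was higher in spots rich in early proximal tubule markers in Uox_KO. In S1_S2-rich spots it was at 1754 and 2035 CPM in Uox_KO and 413 and 425 CPM in Control. The log2 difference from other spots was 1.76 in Uox_KO (edgeR adjusted p = 4.82e-41) and 0.09 in Control (adjusted p = 0.198), and the difference between genotypes was 1.67 (adjusted p = 7.61e-31). Aldh1a7 was higher in these spots in Uox_KO by 0.81 (edgeR adjusted p = 1.04e-16), at 82.1 and 68.6 CPM, where Control had 8.86 and 11.5 CPM. Aldh1a1 was higher by 0.47 (edgeR adjusted p = 3.91e-09), but the value was 0.11 when scaled to total UMIs (adjusted p = 0.137), and its levels were 89.5 and 86.0 CPM. Aldh1a2 fell by 1.25 and Rbp4 by 2.37 in S1_S2-rich spots of Uox_KO (edgeR adjusted p = 5.18e-12 and 9.31e-14), and for Rbp4 the call was lost without fat and urothelium spots (-0.41, adjusted p = 0.377). Over the members, 3 of 7 were higher and 2 lower in Uox_KO, with 53.2% of all genes called (3667 higher, 4531 lower). Scaled to total UMIs, 2 were higher and 4 lower, with 1437 of all genes higher and 8664 lower. The call of Aldh1a1 was lost there, and Cyp26b1 (-0.88, adjusted p = 0.00376, against -0.51 and 0.0731 with TMM) and Aldh1a3 (-0.78, adjusted p = 0.0333, against -0.42 and 0.283) were called lower. In Control 0 of 7 were called by edgeR, with 23.7% of all 15397 genes called; 1 of 7, Cyp26b1, had an unadjusted p under 0.05, and DESeq2 also called 0.

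Aldh1a1 had its highest mean among the marker-rich spots of Uox_KO in S3-rich spots, 111 ± 16.6 CPM (SD, n = 2), from 123 and 99.5 CPM. Spots rich in the hepatocyte list (119 and 94.8 CPM) and in the mesothelium list (117 and 92.8 CPM) lay close to it. Control had 5.11 and 4.20 CPM in S3-rich spots. The log2 difference from other spots was 0.84 in Uox_KO (edgeR adjusted p = 4.09e-10) and 0.06 in Control (adjusted p = 0.780), and it was larger in Uox_KO by 0.78 (adjusted p = 5.64e-04). Aldh1a7 was higher by 0.33 in S3-rich spots of Uox_KO (edgeR adjusted p = 2.83e-04), a call lost when scaled to total UMIs (0.01, adjusted p = 0.878) and without the leading gene Acy3 (0.15, adjusted p = 0.0561). In these spots 6 of 7 members were called in Uox_KO (3 higher, 3 lower; 50.6% of all genes) and 3 of 7 in Control (2 higher, 1 lower; 33.2% of all genes). Both higher calls in Control, Aldh1a7 (0.26, adjusted p = 0.0480) and Ttr (0.23, 0.0342), were lost when scaled to total UMIs (0.11, adjusted p = 0.389, and 0.08, adjusted p = 0.486), and DESeq2 called 1 of 7. On that scale 5 of 7 were called in Uox_KO. Differences between genotypes were called for 5 of 7 members in S1_S2-rich spots (35.1% of all genes) and for 2 of 7 in S3-rich spots (14.3% of all genes), and for 4 and 2 of 7 when scaled to total UMIs.

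Cyp26b1 was high in podocyte-rich spots, which mark glomeruli, and in endothelium-rich spots. It measured 6.06 and 8.28 CPM there in Control and 56.1 and 73.5 CPM in Uox_KO, where these spots held 39.6 and 43.9% of its UMIs. The log2 difference from other spots was 2.67 ± 0.24 (SE) in Control (edgeR adjusted p = 1.49e-06) and 3.71 ± 0.18 in Uox_KO (adjusted p = 4.74e-09). The difference between genotypes, 1.04, passed the threshold (edgeR adjusted p = 0.0361) and did not without Control section 1 (0.66, adjusted p = 0.407). Endothelium-rich spots gave nearly the same picture, with 6.03 and 6.55 CPM of Cyp26b1 in Control and 40.9 and 60.3 CPM in Uox_KO, and with 34.8 and 37.5% of its Uox_KO UMIs. The log2 difference from other spots was 2.35 ± 0.23 (SE) in Control and 3.22 ± 0.16 in Uox_KO (edgeR adjusted p = 1.59e-11 and 1.12e-20). Whether Cyp26b1 differed between podocyte-rich and endothelium-rich spots was not tested. Aldh1a2 was also higher in podocyte-rich spots, by 1.60 in Control and 0.97 in Uox_KO (edgeR adjusted p = 2.71e-05 and 1.79e-05), at 6.38 and 5.65 CPM and at 48.7 and 58.1 CPM. Aldh1a2, which makes retinoic acid, and Cyp26b1, which breaks it down, were thus both called higher in podocyte-rich spots of either genotype. This was not particular to podocyte-rich spots. With total UMIs, both were also called higher in fibroblast-rich spots of either genotype and in macrophage-rich spots of Control. In macrophage-rich spots of Uox_KO, Cyp26b1 was not called on that scale (0.45, edgeR adjusted p = 0.0992). Aldh1a2 was at 43.9 and 61.9 CPM in endothelium-rich spots of Uox_KO. Aldh1a1 was lower in podocyte-rich spots of Uox_KO by 0.81 (edgeR adjusted p = 2.66e-06), at 65.0 and 62.7 CPM. Over the members, 4 of 7 were called in Control (34.9% of all genes), 6 of 7 in Uox_KO (42.4%) and 2 of 7 for the difference (8.09%). Scaled to total UMIs, the lower calls of Aldh1a7 and Ttr in Control were lost (-0.19 and -0.19, adjusted p = 0.292 and 0.189) and Aldh1a1 was called higher (0.53, adjusted p = 0.0128). Podocyte-rich spots of Uox_KO were shallow, with medians of 7013 and 8620 UMIs, and had 749 and 609.8 CPM of Malat1, and the part of these was not tested.

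Macrophage-rich and fibroblast-rich spots divided the family. Aldh1a2 was higher in macrophage-rich spots by 0.91 in Control (edgeR adjusted p = 0.0119), a call lost without Control section 2 (0.68, adjusted p = 0.183), and by 1.26 in Uox_KO (adjusted p = 8.34e-08). It measured 3.82 and 3.60 CPM there in Control and 48.8 and 81.6 CPM in Uox_KO. In fibroblast-rich spots it was higher by 1.42 in Control and by 1.15 in Uox_KO (edgeR adjusted p = 5.87e-06 and 4.31e-09), at 50.0 and 71.7 CPM in Uox_KO. Aldh1a3 was likewise higher in Uox_KO in both, by 1.13 and 1.59 (edgeR adjusted p = 3.83e-04 and 1.40e-05). Aldh1a1 was lower by 1.30 and 1.31, Aldh1a7 by 1.87 and 1.47 and Ttr by 2.71 and 2.38 in macrophage-rich and fibroblast-rich spots of Uox_KO. Their edgeR adjusted p-values were 8.48e-10, 2.20e-10 and 9.64e-12 in the former and 1.02e-10, 7.23e-10 and 2.71e-15 in the latter. The Aldh1a1 level in macrophage-rich spots of Uox_KO, 55.1 and 46.2 CPM, still lay above the 5.59 and 4.77 CPM of Control. Ttr lay below, at 182 and 225 CPM against 330.0 and 377 CPM. Rbp4 was higher in fibroblast-rich spots of Control by 4.07 (edgeR adjusted p = 6.04e-07), at 1.73 and 1.42 CPM, where its level in Uox_KO was 19.2 and 19.3 CPM. The call for Rbp4 in Uox_KO turned on the scale, with a difference of 0.32 by TMM (adjusted p = 0.107) and of 0.85 when scaled to total UMIs (adjusted p = 5.15e-04). Of 7 members, 4 were called in Control and 6 in Uox_KO in macrophage-rich spots (21.9% and 56.5% of all genes), and 7 and 5 in fibroblast-rich spots (39.1% and 54.1%). In fibroblast-rich spots the order of these counts turned with the scale, to 5 in Control and 7 in Uox_KO with total UMIs, and DESeq2 called 5 in each. Aldh1a7 (-0.27, adjusted p = 0.279) and Ttr (-0.02, 0.770) were then not called in Control, and Cyp26b1 (0.77, 0.0106) was called higher in Uox_KO beside Rbp4. Differences between genotypes were called for 5 of 7 in each, with 29.3% and 24.3% of all genes called, and for 5 and 3 of 7 when scaled to total UMIs. On that scale the Cyp26b1 difference between genotypes was not called in macrophage-rich (-0.78, adjusted p = 0.0861) or fibroblast-rich spots (-0.73, 0.141), nor that of Aldh1a7 in fibroblast-rich spots (-0.67, 0.0625), while that of Aldh1a2 in macrophage-rich spots was (0.74, 0.0412). The S1_S2 list made up 0.142 and 0.186% of UMIs in macrophage-rich spots of Uox_KO, against 0.860 and 0.812% in those of Control, and its part in these differences was not tested. Malat1 stood at 365 and 464 CPM in macrophage-rich and at 537 and 560.1 CPM in fibroblast-rich spots of Uox_KO, against 308 and 275 CPM over all spots, and its part was not tested either. Macrophage-rich spots of Uox_KO held 0.458 and 0.394% of UMIs from the fibroblast list, which made up 0.641 and 0.553% in fibroblast-rich spots.

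Injured-tubule-rich (Spp1-rich) spots held 66.4 and 67.9% of the Havcr1 UMIs of the Uox_KO sections. Aldh1a1 there was at 88.5 and 75.5 CPM, with a log2 difference from other spots of -0.16 (edgeR adjusted p = 0.0303). The call was lost under 7 alternatives, among them scaling to total UMIs (-0.01, adjusted p = 0.894) and leaving out any of the sections (-0.19 to -0.13, adjusted p from 0.0770 to 0.265). Aldh1a7 was lower by 0.48 (edgeR adjusted p = 8.89e-06), at 44.6 and 49.2 CPM, and Ttr by 1.65 (adjusted p = 1.03e-15), at 314 and 346 CPM. Aldh1a2 was higher by 0.85 (edgeR adjusted p = 2.88e-07), at 31.6 and 43.1 CPM. In Control the same spots gave -1.03 for Aldh1a7, -1.06 for Ttr and 0.75 for Aldh1a2 (edgeR adjusted p = 1.60e-06, 7.76e-13 and 0.00625), the last lost without Control section 2 (0.61, adjusted p = 0.150). Of 7 members, 3 were called in Control and 6 in Uox_KO (45.5% and 37.8% of all genes), and 4 for the difference between genotypes (40.1%). Scaled to total UMIs these were 4, 5 and 4, and DESeq2 called 3, 5 and 2. Aldh1a1 in Control (0.12, adjusted p = 0.566) was called higher on the former scale (0.36, adjusted p = 0.0418).

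**Figure D4:**
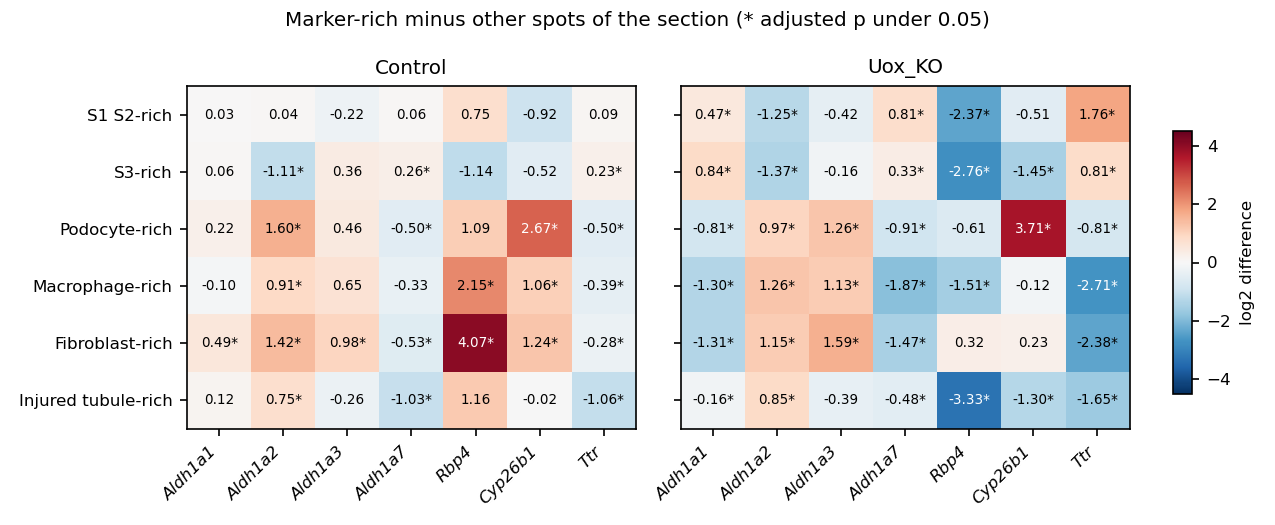
Log2 difference between marker-rich spots (rows) and the other spots of the section for the 7 members tested (columns), in Control and Uox_KO; red is higher and blue lower in the rich spots, and an asterisk marks an edgeR adjusted p under 0.05. Cyp26b1 is highest in podocyte-rich spots (2.67 and 3.71), and Aldh1a1, Aldh1a7 and Ttr are lower in macrophage-rich and fibroblast-rich spots of Uox_KO.

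Other genes of retinoid handling, which were not among the 8, were tested between genotypes from lists drawn up by role. Of 72 listed genes 64 passed the filter, 25 of them rose and 28 fell in Uox_KO (82.8% called, beside 67.1% of all genes), with a median log2 fold change of -0.09. Scaled to total UMIs the split was 30 higher and 21 lower, and over all genes it moved from 5665 higher and 5325 lower to 8156 and 2926. Uptake and storage was mixed (3 rose and 2 fell of 7). Stra6, the membrane receptor for the retinol carrier, rose from 0.823 and 0.658 CPM to 20.4 and 18.7 CPM (log2 fold change 4.46 ± 0.12, SE; edgeR adjusted p = 1.35e-06). Lrat, which stores retinol as esters, fell by 1.90 (edgeR adjusted p = 1.06e-04), from 3.30 and 2.75 CPM to 1.02 and 0.926 CPM. In neither did the groups overlap. Bco2, which cleaves carotenoids, fell by 1.98 (edgeR adjusted p = 8.38e-06). Dgat1, an acyltransferase that also esterifies retinol, rose by 0.78 (edgeR adjusted p = 1.05e-04), a call lost without fat and urothelium spots (0.11, adjusted p = 0.152).

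Of the enzymes of the first oxidation 4 rose and 10 fell of 17, where 32.5% of all genes were called lower. Scaled to total UMIs 5 rose and 7 fell. The alcohol dehydrogenase gene Adh5 fell by 0.99 (edgeR adjusted p = 2.82e-05), Rdh14 by 0.66 and Dhrs4 by 0.73 (adjusted p = 6.18e-05 and 7.60e-05). Retsat, which saturates retinol, fell by 0.49 (edgeR adjusted p = 5.57e-04), a call lost in proximal spots alone (-0.06, adjusted p = 0.369). Of the other enzymes that act on retinal, 3 rose and 1 fell of 4, where 34.6% of all genes were called higher. Aldh8a1, an aldehyde dehydrogenase reported to oxidise retinal, fell by 1.20 (edgeR adjusted p = 2.14e-05), and the aldehyde oxidase genes Aox1 and Aox3 and Cyp1b1 rose by 3.37, 2.29 and 1.26 (adjusted p = 1.27e-04, 0.00419 and 1.02e-04). Of the remaining aldehyde dehydrogenases, 4 rose and 9 fell of 15 (5 and 8 when scaled to total UMIs), beside 34.6% of all genes called higher and 32.5% lower. Aldh7a1 fell by 1.26, Aldh6a1 by 1.08, Aldh9a1 by 1.03 and Aldh4a1 by 0.98 (edgeR adjusted p = 1.64e-05, 6.65e-05, 2.45e-05 and 3.09e-05). These are the 4 with the smallest p of the list.

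Of the binding protein genes, Rbp7 rose by 6.06 on the log2 scale (edgeR adjusted p = 2.20e-05) and by 4.72 without fat and urothelium spots. Fabp5, a fatty acid binding protein that also binds retinoic acid, rose by 1.97 (edgeR adjusted p = 1.29e-04), and by 0.47 without those spots (adjusted p = 0.00139). Cyp26a1, a relative of Cyp26b1, rose by 1.91 (edgeR adjusted p = 4.21e-04), from 0.235 and 0.269 CPM to 1.24 and 1.05 CPM. Among the receptors, 3 rose and 2 fell of 7 (4 and 0 when scaled to total UMIs). Rarg rose by 1.05 and Rarb by 0.78 (edgeR adjusted p = 4.10e-05 and 0.00194). Rxrg rose by 3.22 (adjusted p = 1.48e-04), which was not called without fat and urothelium spots (1.01, adjusted p = 0.0753). Rxra fell by 0.34 (adjusted p = 0.00156), which was not called when scaled to total UMIs (-0.08, adjusted p = 0.312). Of genes known as targets of retinoic acid, 4 rose and 0 fell of 6. Of the 2 not called, 0 had an unadjusted p under 0.05. The share called was 66.7%, beside 67.1% of all genes called in either direction and 34.6% called higher. Scaled to total UMIs, 5 of the 6 rose and 0 fell, where 8156 of all genes rose and 2926 fell. Rarres2, which encodes chemerin, rose from 59.7 and 52.6 CPM to 238 and 207 CPM (log2 fold change 1.72 ± 0.09, SE; edgeR adjusted p = 1.17e-05). Tgm2, Hoxa5 and Ret rose by 0.71, 0.61 and 2.16 (edgeR adjusted p = 9.61e-05, 4.92e-04 and 7.43e-04).

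The genes of the reabsorption of filtered carrier protein all fell (4 of 4), where 32.5% of all genes were called lower. Scaled to total UMIs, 3 of the 4 were called lower. Lrp2, which encodes megalin, went from 1046 and 971 CPM to 484 and 492 CPM, and fell by 1.31 on the log2 scale (edgeR adjusted p = 2.09e-05). Cubn and Dab2 fell by 0.97 and 0.86 (edgeR adjusted p = 2.96e-05 and 1.16e-04). Amn fell by 0.31 (adjusted p = 0.00334), which was not called when scaled to total UMIs (-0.04, adjusted p = 0.595) or in proximal spots alone (-0.01, adjusted p = 0.871). The S1_S2 list itself summed to 8688 to 9000 CPM in Control and 4334 to 4889 CPM in Uox_KO sections, with all 11 of its markers detected in both, and its part in these falls was not tested.

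**Figure D5:**
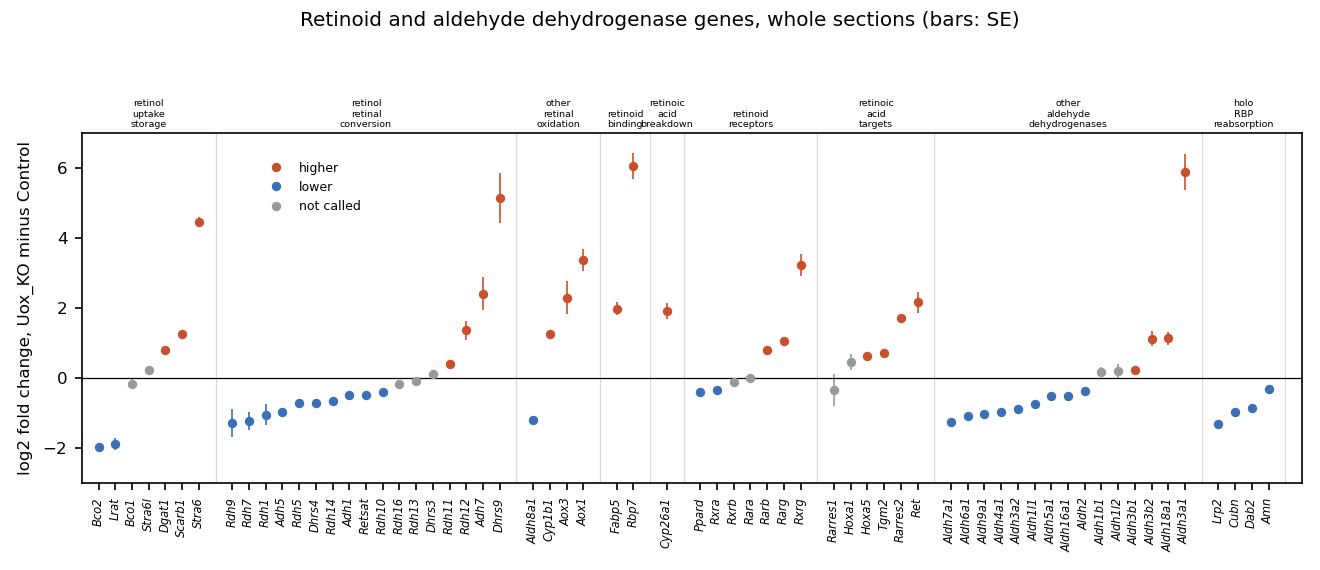
Log2 fold change, Uox_KO minus Control, over whole sections (vertical axis) for tested genes of the role lists (horizontal axis, grouped by list); bars are SE, red and blue points passed an edgeR adjusted p of 0.05 as higher and lower, grey points did not. Binding proteins and retinoic acid targets have red points and no blue one, and the 4 reabsorption genes are all blue.

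Over spots, the genes most like 3 of the members were sought among 4938 genes by the mean of 4 within-section Pearson correlations, each spot thinned to 5000 UMIs. For Aldh1a1 these were Mep1a, Slc27a2, Kap, Fth1 and Akr1c21, with r of 0.14 to 0.19 in the Uox_KO sections and -0.01 to 0.04 in Control. For Aldh1a7 they were Pck1, Dbi, Scp2, Chpt1 and Gpd1, with r of 0.11 to 0.19 in Uox_KO and -0.01 to 0.05 in Control. These values are weak, and spots of a section share a library and tissue. For Rbp4 the genes most alike were Car3, Scd1, Fabp4, Fasn and Agpat2, with r of 0.30 to 0.44 in Uox_KO and -0.02 to 0.24 in Control. Between Aldh1a1 and Aldh1a7, Spearman rho over thinned spots was 0.05 and 0.01 in Control and 0.00 and 0.01 in Uox_KO. Before thinning, 15.9 and 14.2% of Control spots and 61.0 and 61.2% of Uox_KO spots held an Aldh1a1 UMI. Thinning leaves fewer, and counts this sparse keep rho near 0 whatever the genes do. Whether the paralogs follow each other from spot to spot therefore cannot be read from these values. The same limit bears on the r values of both genes. Ttr followed the S1_S2 share of the spot with rho of 0.67 and 0.64 in Uox_KO and 0.01 and 0.06 in Control.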

How the data were processed

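UMI counts per gene and spot were deposited by the authors, per the file headers, and had been made with Space Ranger 1.3.1 on mm10, per the submitters' processing notes. Counts were summed per section, and per section and class of spots, and tested with edgeR 4.0.16 (quasi-likelihood, TMM, Benjamini-Hochberg over all genes that passed filterByExpr, threshold 0.05; R 4.3.3, limma 3.58.1), as alternatives with DESeq2 1.42.0, without TMM, without the filter, with a replicate block, on thinned counts, on other spots or cutoffs, and without each section. Scaling to total UMIs, lists without their leading gene and the other tubule spots were added after the data had been seen. Python 3.11.15, numpy 2.4.6, scipy 1.17.1 and Biopython 1.88 did the rest. The Poisson intervals of Crabp2 and the limits for Uox cover counting error only. The intervals of the Havcr1 differences come from the edgeR quasi-likelihood fit and its estimated spread. The members and lists were chosen with earlier results of these data known. Named were the 8 members, up to 4 genes per role list with the smallest p, and the 5 genes most like each of Aldh1a1, Aldh1a7 and Rbp4 among genes of at least 20 CPM in every section; Havcr1, Malat1 and the leading genes of lists are named for their classes. A gene chosen by this rule is not reported here.

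Marker-rich spots needed at least 3 UMIs of the list. Lists whose rich spots fell below 20 in a section were not tested. The spots' positions were not used here. Replicate numbers were not taken as pairs, since same-numbered sections deviated together with r = 0.0922 over 9362 genes. Counts were simulated from the mean of each gene over all libraries, with known changes in few genes, as many up as down. For Uox_KO against Control over 16100 genes, 83.5% of 2-fold and 96.0% of 4-fold changes were returned, with 12% of calls false. For the Havcr1 classes 91% and 100% were returned over 13770 genes (7.28% of calls false). For S1_S2-rich spots 70% and 89.7% were returned over 14960 genes (1.88% of calls false). The simulated counts held no broad shift between groups, whereas 67.1% of all genes were called in the real genotype contrast. How these rates carry over to the real contrasts was not tested.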

Additional observations from a re-analysis of the deposited data

Results flagged for a closer look

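The values here are differences between genotypes in how far marker-rich spots stood from the other spots (log2, Uox_KO minus Control; edgeR, adjusted over all genes), all past the threshold; groups of 2 sections were too small to look for outlying samples. In S1_S2-rich spots the difference was 1.67 for Ttr, 0.74 for Aldh1a7, -1.29 for Aldh1a2, -3.12 for Rbp4 and 0.44 for Aldh1a1. The Aldh1a1 value was lost under 7 alternatives, among them scaling to total UMIs (0.11) and leaving out Control section 1 (0.55), Control section 2 (0.34) or Uox_KO section 2 (0.27). The Aldh1a2 call was lost without Control section 2 (-0.99), and the Rbp4 call without Control section 1 (-1.59) or without fat and urothelium spots (-1.58). In S3-rich spots it was 0.78 for Aldh1a1 and 0.58 for Ttr, the latter lost without Acy3 in the list (0.22).

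In podocyte-rich spots the difference was 1.04 for Cyp26b1, lost without Control section 1 (0.66), and -1.03 for Aldh1a1. Macrophage-rich spots gave -1.21 for Aldh1a1, -1.54 for Aldh1a7, -2.32 for Ttr, -3.67 for Rbp4 and -1.18 for Cyp26b1, whose call was lost under 4 alternatives, Control section 2 left out among them (-1.05). Fibroblast-rich spots gave -1.80 for Aldh1a1, -0.94 for Aldh1a7, -2.10 for Ttr, -3.75 for Rbp4 and -1.01 for Cyp26b1. There the Aldh1a7 call was lost when scaled to total UMIs (-0.67), the Rbp4 call without fat and urothelium spots (-1.62) and the Cyp26b1 call under 8 alternatives, among them leaving out Control section 1 (-1.02), Control section 2 (-1.01) or Uox_KO section 1 (-0.77). Injured-tubule-rich (Spp1-rich) spots gave -4.50 for Rbp4, -0.59 for Ttr, -1.28 for Cyp26b1 and 0.55 for Aldh1a7. The Rbp4 values rest on few UMIs in the rich spots of Control. These were 4 and 3 in injured-tubule-rich, 6 and 5 in macrophage-rich, 11 and 11 in fibroblast-rich and 4 and 1 in S1_S2-rich spots. In Uox_KO, fat and urothelium spots held 76.4 and 82.4% of the Rbp4 UMIs and can stand among the other spots. The Aldh1a7 value turned to -0.72 without Spp1 in the list and was not called without Control section 2 (0.42), and the Cyp26b1 call was lost without Control section 2 (-0.85) or Uox_KO section 2 (-0.82).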

How the results depend on the processing

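The direction of each of the 7 members tested between genotypes was the same under all alternatives run. For Aldh1a1 the Havcr1 difference was -0.10 with thinned spots, 0.99 in the other tubule spots and 0.06 to 0.07 with a section left out. For Aldh1a7 it was 0.15 in the third of spots lowest by S3 share, 0.79 in the other tubule spots and -0.21 to 0.11 with a section left out. These are other spots or fewer spots, and the cause was not tested. Without their leading gene, the Spp1-rich spots gave -0.72 for the genotype difference of Aldh1a7 and 0.060 for Cyp26b1 in Uox_KO. Rbp4 in macrophage-rich spots of Uox_KO turned to 0.13 without fat and urothelium spots. With a section left out, pathway genes called numbered 23 to 27 higher and 26 to 28 lower. The log2 differences in Uox_KO ranged over 0.84 to 0.85 for Aldh1a1 in S3-rich, 1.04 to 1.44 for Aldh1a2 in macrophage-rich, 0.72 to 0.88 for Aldh1a7 and 1.71 to 1.81 for Ttr in S1_S2-rich, and 3.62 to 3.75 for Cyp26b1 in podocyte-rich spots (2.27 to 3.04 in Control). With the replicate block, 25 pathway genes were higher and 28 lower, as without it; same-numbered sections were not shown to be pairs. Of 78 called marker-rich differences, 43 kept direction and call under all alternatives run and 35 did not. Of 32 pathway genes that the naming rule chose, 27 did and 5 did not.

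With 2 sections per group a fit of the Havcr1 classes has 1 residual degree of freedom per gene and borrows its spread from all genes. Crabp2 in all sections and Rbp4 in Control rest on under 20 UMIs per section. Removing a section from the Havcr1 comparison leaves a value with no test.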
